A study of Drosophila melanogaster with 96 samples.

Results

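The comparison described here sets fly heads from a light-dark cycle against fly heads from constant darkness at hours 4 and 8 of the day, and it uses 16 of the 96 RNA-seq libraries of the series. The 8 LD libraries came from flies at 25 °C under 12 h of light alternating with 12 h of darkness, and the 8 DD libraries came from flies at 25 °C in constant darkness. In each condition the libraries were taken at hours 4 and 8 on days 4 and 5, as duplicates at each of the 4 time points, and they were chosen by these labels alone. All the flies were labelled as males of Drosophila melanogaster strain ISO1, the inbred stock behind the fly reference genome, and whole heads were used. The labels do not say when darkness began or whether hour 0 was lights-on, so "daytime" below means the labelled hours 4 and 8. They name no incubator or collection run, so a difference between incubators cannot be told apart from the difference in light.

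Light reaches the fly head through the rhodopsins of the compound eye and through cryptochrome inside clock neurons and photoreceptors. Cryptochrome lets light destroy the timeless protein, which resets a feedback loop in which Clock and cycle switch on period and timeless, whose proteins later switch Clock and cycle off. In a light-dark cycle the clocks of all head cells are held together, whereas in constant darkness they run on their own. Light also drives photoreceptors and the neurons behind them, and active fly neurons switch on a small set of early genes such as Hr38.

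Library totals were 18.2 to 27.3 M counts in LD (median 21.7 M; 1 M is 1e+06 counts) and 18.8 to 23.6 M in DD (median 20.2 M), and levels are given as CPM, counts divided by the scaled library size in M, after TMM scaling. Markers of photoreceptors, neurons, glia, fat body and muscle were all detected. The sex label was met by 1 set of markers and not by another. The male dosage-compensation RNA lncRNA:roX1 had 315 to 499 CPM in LD and 370 to 718 CPM in DD. The yolk protein genes Yp1, Yp2 and Yp3, which are made by the fat body of females, nevertheless summed to 38159 to 60072 CPM in LD and 35402 to 61529 CPM in DD, while the ovary markers Cp36 and Vml had 0 counts and 1 count over the 16 libraries. The groups overlapped in these sums and 0 of the 3 yolk protein genes passed the test in edgeR or in DESeq2, and 0 of 3 had an unadjusted p under 0.05. Testis markers summed to 3.32 to 6.62 CPM in LD and 3.38 to 6.85 CPM in DD. The part of these female transcripts in the results was not tested.

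The libraries also differed in their content of photoreceptor RNA. The summed level of 5 photoreceptor markers (trp, norpA, chp, ninaC and Arr2) was 25148 to 25817 CPM in the LD libraries of hour 4 and 24374 to 25289 CPM in the DD libraries of hour 4. At hour 8 it was 11908 to 19047 CPM in LD, and in DD it was 15596, 16411 and 17195 CPM in 3 libraries and 26397 CPM in replicate 1 of day 4. The replicates of DD day 4 hour 8 stood farthest apart, with a root mean square log2 difference of 0.316 over 7308 genes, against 0.142 to 0.276 at the other 7 time points. Counts of calls are therefore also given without the 4 libraries of day 4 hour 8. In whole heads fewer cells of a type and less RNA per cell cannot be told apart.

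Over the 4 time points the light-dark cycle changed many genes by a little and a few by much. Of 10313 genes tested, 725 (7.03%) differed between LD and DD at an adjusted p under 0.05 (edgeR quasi-likelihood test, Benjamini-Hochberg over all genes). In LD, 372 genes (3.61%) were higher and 353 (3.42%) were lower, and the median size of a called difference was 0.27 on the log2 scale. These shares over all genes are the ones to set beside each count of list members below. A difference of at least 2-fold was called for 31 genes (0.301%), of which 6 were higher and 25 lower in LD. With a floor of 1 CPM in 8 libraries this fell to 17 genes, 2 higher and 15 lower. Without day 4 hour 8, 592 genes were called, 491 of them among the 725.

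Genes with a mean of at least 5 CPM and 1 direction at all 4 time points were ranked by their difference, and the top 12 called genes of each direction are described. Among the 12 increases the first 3 belong to the list of activity-regulated genes, which was chosen with earlier results of these data known. Hr38, an orphan nuclear receptor that active neurons induce, had 19.2 to 33.4 CPM in the 8 LD libraries (median 24.3) and 7.73 to 13.8 CPM in the 8 DD libraries (median 10.3). The groups did not overlap, the mean ratio of LD over DD was 2.50, and the fitted log2 difference was 1.32 ± 0.12 (SE; adjusted p = 5.35e-06). stripe (sr), an EGR-type zinc finger transcription factor, had 21.2 to 27.0 CPM in LD (median 22.8) and 9.77 to 17.3 CPM in DD (median 11.2), again without overlap (log2 difference 0.99 ± 0.09, adjusted p = 7.2e-06). CG14186 had 121 to 188 CPM in LD (median 159) and 69.7 to 101 CPM in DD (median 87.0), and its log2 difference was 0.87 ± 0.08 (adjusted p = 4.15e-06).

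Of the 13 activity-regulated genes tested, 5 were higher in LD and 0 were lower, with a median log2 difference of 0.14 against −0.0066 over all genes. Beside those 3, CG17778 (log2 difference 0.28 ± 0.07) and Jra, the fly Jun protein (0.14 ± 0.04), passed the test. The same 5 genes were called without day 4 hour 8. Jra lost its call with the replicate number as a block (adjusted p = 0.0501) and without the low-count filter (adjusted p = 0.0814). kay, Arc1, Arc2 and the other members did not pass. At the other temperatures of the series, where all flies were in darkness, Hr38 at hours 4 and 8 ranged over 7.44 to 10.3 CPM at 18 °C and 9.42 to 11.1 CPM at 29 °C, below every LD library on the same scale (19.8 to 33.9 CPM).

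**Figure D1:**
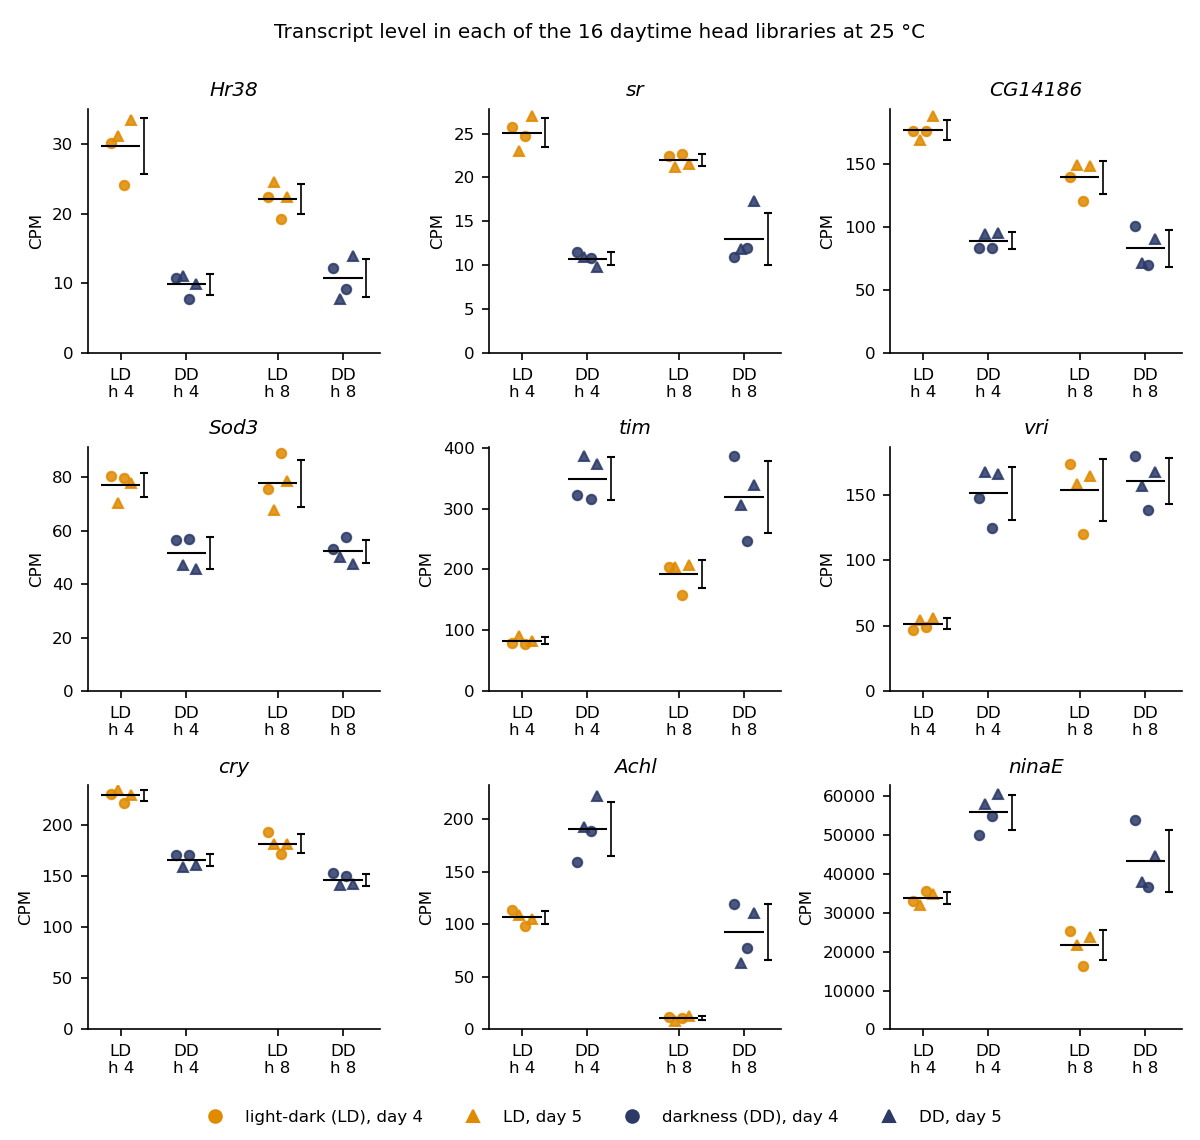
Level (CPM, linear axis from 0) of 9 genes in each of the 16 libraries, with LD left of DD at hour 4 and at hour 8. Circles are day 4 and triangles day 5, horizontal lines are means and bars ±1 SD of 4 libraries. Hr38, sr, CG14186, Sod3 and cry stood higher in LD at both hours, tim and ninaE stood lower at both hours, vri stood lower at hour 4, and Achl reached 8.38 to 13.01 CPM in LD at hour 8.

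The other 9 of these 12 genes had log2 differences of 0.56 to 0.87. The LD and DD libraries did not overlap for CG13999 (7.92 to 10.004 CPM in LD, 4.13 to 5.74 CPM in DD), CG44247 (199 to 265 CPM in LD, 138 to 161 CPM in DD) or CG14132 (8.81 to 13.04 CPM in LD, 5.14 to 8.36 CPM in DD). They did not overlap either for Tk, the tachykinin neuropeptide precursor, which had 46.7 to 74.2 CPM in LD and 31.7 to 45.8 CPM in DD (log2 difference 0.59 ± 0.04, adjusted p = 1.58e-06). Sod3, the extracellular superoxide dismutase, also had separate groups, with 67.9 to 89.2 CPM in LD and 45.8 to 57.7 CPM in DD (0.58 ± 0.05, adjusted p = 1.78e-06). These 5 genes were higher in LD in every library.

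The groups overlapped for Buffy, a Bcl-2 family protein, for jeb, the secreted ligand of the Alk receptor, and for Vinc, the fly vinculin. jeb had 85.5 to 110 CPM in LD and 53.3 to 97.7 CPM in DD, and its log2 difference was 0.62 ± 0.09. Vinc had 127 to 230 CPM in LD and 93.0 to 159 CPM in DD (0.56 ± 0.08). The last of the 12, atk, had 15.8 to 30.5 CPM in LD and 12.6 to 25.2 CPM in DD. It overlaps CG42764 on the same strand, so its counts are uncertain, and it lost its call when replicate 2 was left out (adjusted p = 0.134).

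The largest decrease among the ranked genes was that of CG14221. It had 1.66 to 2.90 CPM in LD (median 2.04) and 4.70 to 12.5 CPM in DD (median 8.86), with no overlap and a log2 difference of −2.02 ± 0.11 (adjusted p = 2.89e-08). Myo28B1, an unconventional myosin, had 8.99 to 13.3 CPM in LD and 14.9 to 36.7 CPM in DD, and CG2681 had 20.8 to 31.5 CPM in LD and 37.2 to 76.4 CPM in DD. Their groups were separate too, with log2 differences of −1.24 ± 0.16 and −0.96 ± 0.12. CG5883 (1.78 to 4.31 CPM in LD, 4.30 to 13.3 CPM in DD) and CG1632 (8.13 to 21.0 CPM in LD, 15.6 to 42.7 CPM in DD) were called lower with groups that overlapped. The remaining genes of the 12 belong to the clock, rhythmic, visual and heat shock lists below.

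**Figure D2:**
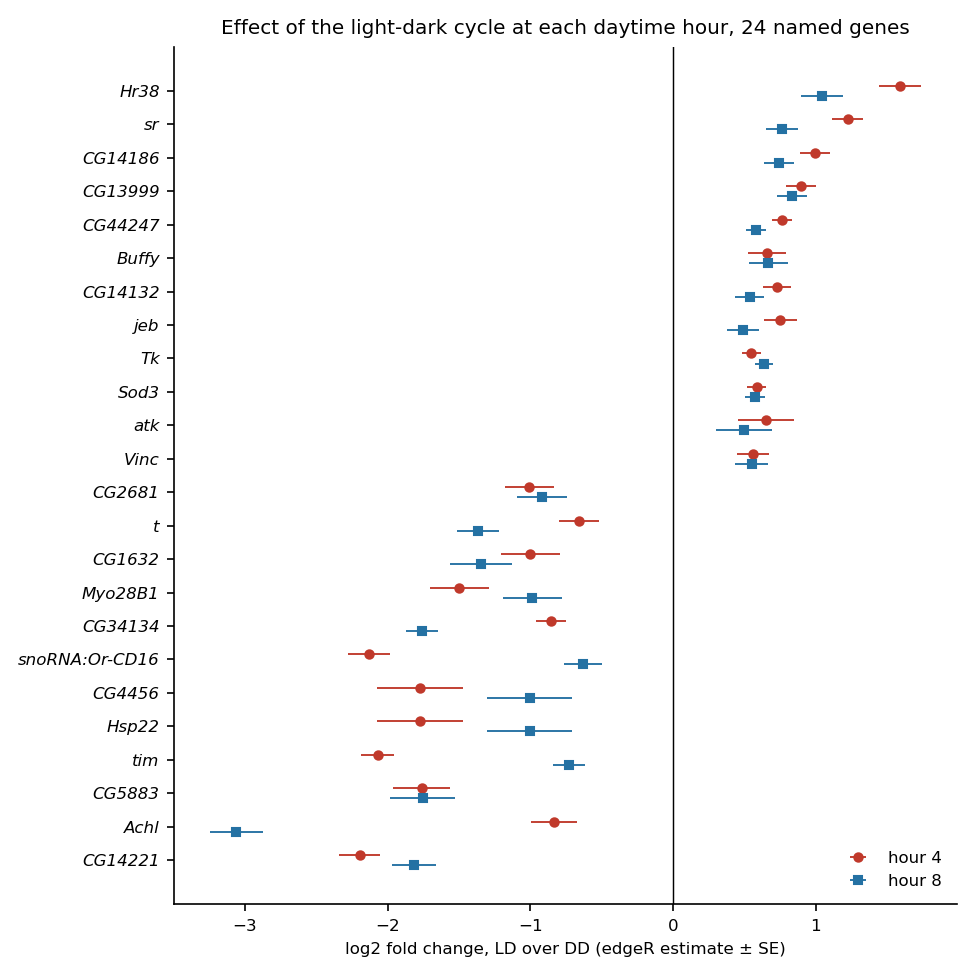
Fitted log2 fold change of LD over DD at hour 4 (circles) and at hour 8 (squares) for the top 12 genes of each direction among called genes of at least 5 CPM with 1 direction at all time points, with bars of ±1 SE from the edgeR fit of 16 libraries. The choice of genes fixes the direction at both hours. The hours lay farthest apart for Achl, tim and the small nucleolar RNA inside tim. CG4456 and Hsp22 have identical values.

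Of the 8 core clock genes, 1 was higher in LD, 4 were lower and 3 did not pass the test, with a median log2 difference of −0.31. The same 5 were called without day 4 hour 8. timeless (tim), whose protein is the target of light, had 78.1 to 207 CPM in LD (median 125) and 246 to 386 CPM in DD (median 331). No LD library reached the lowest DD library, and the log2 difference was −1.39 ± 0.19 (adjusted p = 0.000223). period (per), the partner of tim, had 29.4 to 68.6 CPM in LD and 55.6 to 97.8 CPM in DD, with overlap (−0.63 ± 0.13, adjusted p = 0.00845).

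Among the factors of the second clock loop, vrille (vri), a repressor of Clock, had 46.7 to 173 CPM in LD and 124 to 180 CPM in DD (log2 difference −0.79 ± 0.20, adjusted p = 0.0237). vri lost its call when either replicate was left out (adjusted p = 0.096 without replicate 1 and 0.264 without replicate 2). Pdp1, an activator of Clock, had 251 to 373 CPM in LD and 374 to 538 CPM in DD, with a log2 difference of −0.50 ± 0.07 (adjusted p = 0.00042). The highest LD library of Pdp1 lay just under the lowest DD library. Clk, cyc and cwo did not pass (log2 differences 0.17 ± 0.09, 0.03 ± 0.05 and −0.11 ± 0.04).

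cryptochrome (cry), the clock's own light receptor, was the core clock gene that was higher in LD. It had 172 to 235 CPM in LD (median 208) and 141 to 171 CPM in DD (median 156), so that every LD library was above every DD library (log2 difference 0.39 ± 0.04, adjusted p = 2.61e-05). cry overlaps lncRNA:CR46393 on the same strand, so part of its counts may belong to that gene. Apart from cry, none of the 17 genes listed for light input and turnover of clock proteins was called. That list holds jet, which helps cryptochrome to destroy tim, and the kinases dco and sgg. jet was at 11.1 to 12.95 CPM in LD and 11.4 to 16.9 CPM in DD. The photolyase genes phr and phr6-4, which repair light damage to DNA, did not pass either, in edgeR or DESeq2 or at an unadjusted p under 0.05.

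A small nucleolar RNA on the same strand as tim and inside it, snoRNA:Or-CD16, was also among the 12 decreases (2.48 to 7.43 CPM in LD, 8.39 to 13.9 CPM in DD). Reads of tim and of this RNA cannot be told apart in the counts, so it adds nothing independent to the result for tim.

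The list of rhythmic head genes, which like the other lists was chosen with earlier results of these libraries known, had 5 of 12 members lower in LD and 0 higher. The same 5 were called without day 4 hour 8. Achl (achilles), a rhythmic gene of neurons, had 8.38 to 114 CPM in LD (median 55.9) and 62.9 to 222 CPM in DD (median 139). The log2 difference was −1.85 ± 0.31 (adjusted p = 0.00158), with overlap between groups over both hours but with no overlap at hour 4 or at hour 8. CG34134 had 14.8 to 67.5 CPM in LD and 57.2 to 123 CPM in DD (−1.28 ± 0.14). The lowest genes, CG15080 (0.581 to 2.76 CPM in LD, 2.13 to 6.70 CPM in DD) and CG33965 (0.192 to 0.467 CPM in LD, 0.866 to 1.88 CPM in DD), differed by −1.51 ± 0.21 and −1.88 ± 0.22. Slob, which binds the Slowpoke potassium channel, had 197 to 315 CPM in LD and 272 to 501 CPM in DD (−0.49 ± 0.11). Achl and Slob lost their calls when replicate 2 was left out (adjusted p = 0.13 and 0.0948).

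Among the rhodopsins, 1 of 7 was called, against 7.03% of all genes. ninaE, which encodes Rhodopsin 1 of the outer photoreceptors and was the most abundant of the photoreceptor transcripts measured, had 16364 to 35552 CPM in LD (median 28651) and 36720 to 60675 CPM in DD (median 52041). The groups did not overlap, and the log2 difference was −0.85 ± 0.11 (adjusted p = 0.000198). The rhodopsins of the inner photoreceptors had log2 differences close to 0: 0.00 for Rh3, 0.03 for Rh4, 0.22 ± 0.08 for Rh5 and 0.13 ± 0.10 for Rh6. Rh5 passed as higher in LD without day 4 hour 8 (adjusted p = 0.0275) and not with all 16 libraries (adjusted p = 0.12). Its levels were 500 to 676 CPM in LD and 453 to 638 CPM in DD.

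As libraries differed in photoreceptor content, the level of ninaE is also given relative to the other photoreceptor markers of the same library. This measure was added after the values were seen and is a description with no test. The ratio of ninaE to the sum of all 6 other markers was 1.248 to 1.44 in LD and 1.99 to 2.56 in DD, and it averaged 1.36 ± 0.064 in LD and 2.28 ± 0.19 in DD (SD, n = 8 each). The groups did not overlap in this ratio. Arr2 had more counts than the rest of these markers together, so the ratio was largely that of ninaE to Arr2. The log2 difference of Arr2 was −0.02, against −0.27 for trp, −0.26 for ninaC, −0.20 for chp, −0.14 for norpA and −0.58 for eys. The sum of the 6 itself was 12061 to 26053 CPM in LD (median 22312) and 15827 to 26767 CPM in DD (median 25027), with overlap. With all 16 libraries each of the 7 markers had a log2 difference below 0, of which ninaE and eys were called. Without eys, which was set aside after it had been called, the ratio of ninaE to the remaining 5 was 1.26 to 1.45 in LD and 2.01 to 2.61 in DD.

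**Figure D3:**
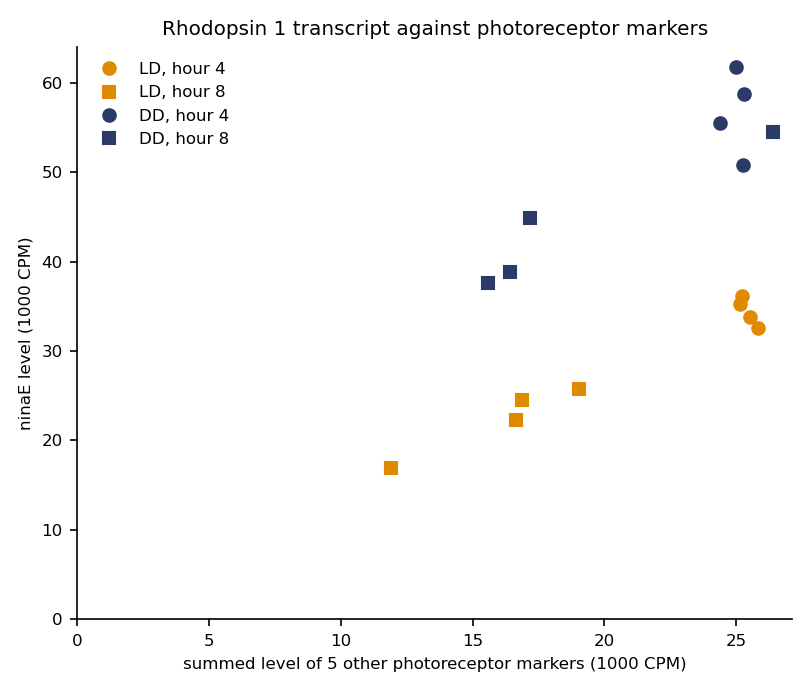
Level of ninaE against the summed level of trp, norpA, chp, ninaC and Arr2 in each library, both in 1000 CPM on axes from 0, for LD and DD at hours 4 and 8. At a like marker level the LD libraries had less ninaE, with ratios of 1.26 to 1.45 in LD and 2.01 to 2.61 in DD. Arr2 made up most of the summed marker level. The hour 8 libraries lay at lower marker levels, except replicate 1 of DD day 4.

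The cascade that turns a photon into a current was not called at any step. Of 18 phototransduction genes, which include the G protein subunits, the phospholipase norpA, the channels trp and trpl and the scaffold inaD, 0 passed in edgeR and 1 (rdgA, lower in LD) in DESeq2, while 5 had an unadjusted p under 0.05. The list's median log2 difference was −0.15, and without day 4 hour 8 it was −0.03. trp, for example, had 1397 to 3365 CPM in LD and 2107 to 3791 CPM in DD, with a log2 difference of −0.27 ± 0.12, and of the settings tried it passed only with the replicate number as a block (adjusted p = 0.0412).

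The genes that end the signal mostly did not pass. Arr1, the minor arrestin of photoreceptors, was the 1 of 6 shut-off genes that was called in edgeR, against 7.03% of all genes. It was higher in LD, with 5197 to 9715 CPM in LD and 4683 to 7540 CPM in DD (log2 difference 0.39 ± 0.11, adjusted p = 0.0324), and it was not called without replicate 2 (adjusted p = 0.146). Arr2, the major arrestin, differed by −0.02 ± 0.11. With DESeq2, rdgC was called as well, lower in LD.

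More genes were called in the path that makes rhodopsin and its vitamin A chromophore, where 3 of 13 were higher and 5 lower in LD, the same 8 as without day 4 hour 8. Those that were lower include chaperones of the opsin. Cnx99A, the calnexin that Rhodopsin 1 needs to fold, had 209 to 300 CPM in LD and 331 to 506 CPM in DD, without overlap (log2 difference −0.73 ± 0.07, adjusted p = 1.25e-05). Xport-A, a chaperone of trp and Rhodopsin 1, had 55.6 to 106 CPM in LD and 100 to 158 CPM in DD (−0.61 ± 0.09). Xport-B shares its transcript and has nearly the same values, so these 2 genes count as 1. ninaG, an enzyme of chromophore synthesis, and ninaA, the cyclophilin that releases Rhodopsin 1 from the endoplasmic reticulum, fell by 0.53 ± 0.11 and 0.36 ± 0.10. Those that were higher serve the supply of the chromophore: ninaB, which cleaves carotenoids (0.18 ± 0.05), santa-maria, a receptor for carotenoid uptake (0.23 ± 0.04), and the retinol dehydrogenase Rdh1 (0.30 ± 0.07).

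Photoreceptors signal with histamine, which glia take up and return as carcinine. Of the 9 genes of this path, tan (t), the hydrolase that frees histamine from carcinine, and HisCl1, a histamine-gated chloride channel, were lower in LD and none was higher. The share of lower genes over all genes was 3.42%. t had 104 to 362 CPM in LD (median 243) and 281 to 586 CPM in DD (median 490), and its log2 difference was −1.01 ± 0.13 (adjusted p = 0.000186). HisCl1 differed by −0.31 ± 0.09 and was not called without day 4 hour 8 (adjusted p = 0.0789). Hdc, which makes histamine, had 31.9 to 83.8 CPM in LD and 41.0 to 84.9 CPM in DD and did not pass.

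Of 17 eye pigment genes, 2 were lower in LD, against 3.42% of all genes tested, so the count says little about the list. sepia (se), an enzyme of the red pteridine pigments, had 16.5 to 32.9 CPM in LD and 26.8 to 44.2 CPM in DD (−0.64 ± 0.07, adjusted p = 1.95e-05). cd, of the brown pigment path, differed by −0.36 ± 0.10 and was not called without day 4 hour 8 (adjusted p = 0.108). Further measures stand beside all these visual genes. The photoreceptor marker eys, a matrix protein of the retina, was lower in LD as well (148 to 249 CPM in LD, 212 to 367 CPM in DD, log2 difference −0.58 ± 0.10). The 7 photoreceptor markers, with ninaE and eys among them, had a median log2 difference of −0.26. That median was −0.14 without day 4 hour 8, and 0.02 in the night hours. The part of photoreceptor content in the calls other than ninaE was not tested.

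**Figure D4:**
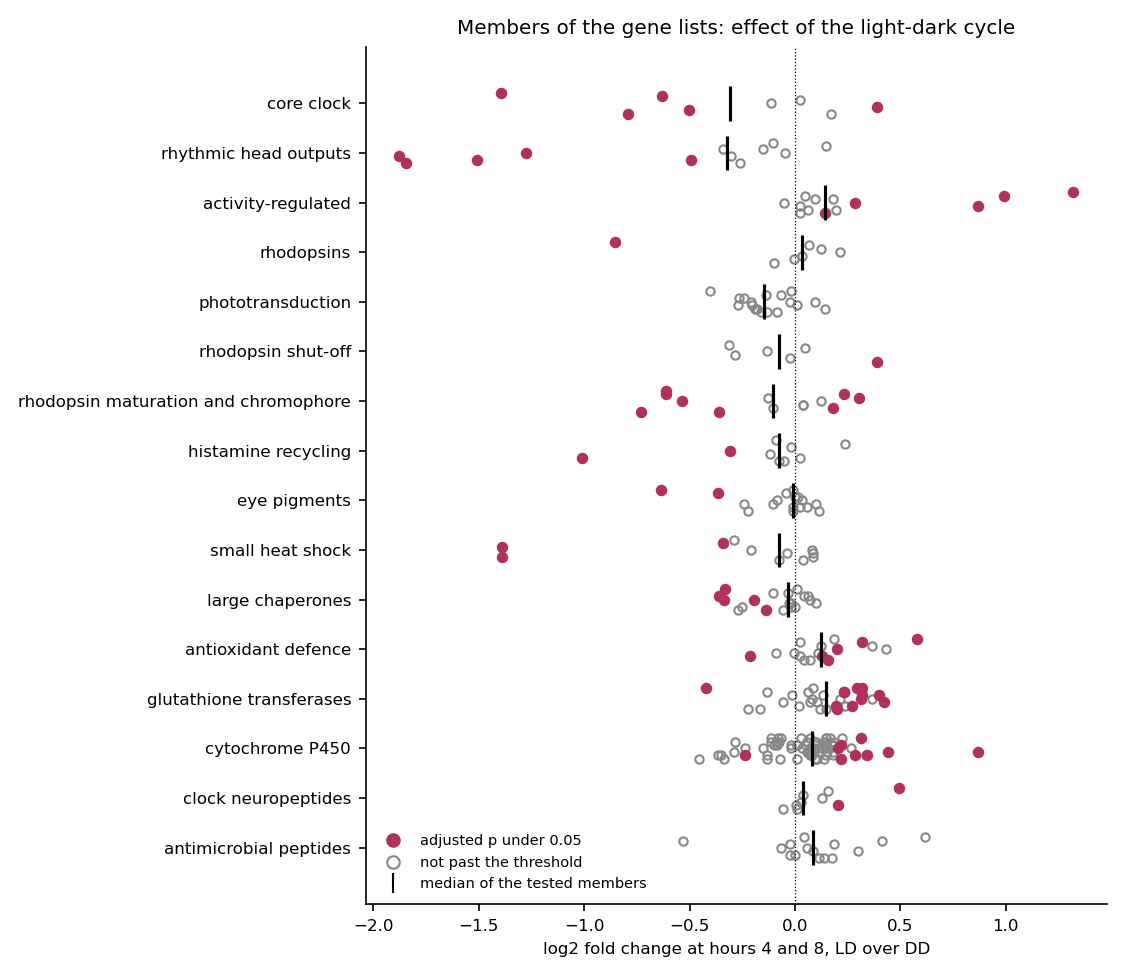
Log2 fold change of LD over DD at hours 4 and 8 for every tested member of 16 gene lists. Filled points passed an adjusted p of 0.05 in edgeR, open points did not, and black bars are list medians. The rhythmic list reached farthest below 0 (CG33965), the activity-regulated list farthest above 0, and 11 of 29 glutathione transferases passed above 0.

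Several genes for detoxification and against oxidants were higher in LD, where 3.61% of all genes were higher and 3.42% lower. Of 29 glutathione transferases, 11 were higher and 1 lower, with a median log2 difference of 0.15, and 7 were higher and 1 lower without day 4 hour 8. The largest increases were 0.42 ± 0.06 for GstE7 (15.7 to 22.0 CPM in LD, 12.9 to 15.98 CPM in DD) and 0.40 ± 0.09 for GstE9 (195 to 289 CPM in LD, 140 to 226 CPM in DD). Each of these groups overlapped. GstZ1 was the one that was lower (8.86 to 13.4 CPM in LD, 10.2 to 16.6 CPM in DD). Several GstE and GstD genes are close relatives in clusters, so reads of 1 could have been counted for another.

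Among 17 antioxidant genes, 5 were higher and 1 lower in LD, and 2 were higher and 1 lower without day 4 hour 8. Sod3 is described above, and GstE1 was at 99.7 to 124 CPM in LD and 75.8 to 104 CPM in DD (0.32 ± 0.06). GstD1, catalase (Cat) and the thioredoxin reductase Trxr1 differed by 0.20 ± 0.05, 0.16 ± 0.04 and 0.13 ± 0.03, and these 3 lost their calls without day 4 hour 8 (adjusted p = 0.0906, 0.0837 and 0.0716). Gclc, the first enzyme of glutathione synthesis, was lower (116 to 130 CPM in LD, 123 to 150 CPM in DD). Of 76 genes picked by a Cyp symbol, 8 were higher and 1 lower, and without day 4 hour 8 it was 6 and 2. These are cytochrome P450 genes, except the cyclophilins Cyp1 and Cyp40, which were not called. With all 16 libraries the shares over all genes were 3.61% higher and 3.42% lower. Cyp6a8 (24.1 to 33.4 CPM in LD, 18.2 to 24.2 CPM in DD; 0.44 ± 0.07) and Cyp6w1 (359 to 525.5 CPM in LD, 323 to 412 CPM in DD; 0.31 ± 0.07) were among the 8, and Cyp18a1, which breaks down ecdysone, was the lower one. Markers of the fat body, a tissue rich in such enzymes, summed to 5270 to 9425 CPM in LD (median 6970) and 4973 to 8934 CPM in DD (median 5980). The median log2 difference of the 4 tested markers was 0.10. None of the 4 was called by edgeR or DESeq2, and 1 had an unadjusted p under 0.05. The part of fat body content in these increases was not tested.

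Of 11 small heat shock genes 3 were lower in LD and 0 higher, with a list median of −0.07, and of 19 large chaperone genes 5 were lower and 0 higher, with a median of −0.03. Without day 4 hour 8, 2 and 4 were lower. As described next, these counts include overlapping or near-identical genes. Over all genes, 3.42% were lower in LD with the 16 libraries. Hsp22, a small heat shock protein of mitochondria, had 10.3 to 18.1 CPM in LD (median 12.2) and 14.2 to 71.1 CPM in DD (median 32.6). The groups overlapped, the DD libraries were widely spread, and the log2 difference was −1.39 ± 0.23 (adjusted p = 0.00131). It was not called without replicate 2 (adjusted p = 0.0583). CG4456 overlaps Hsp22 and has its exact values in each library, so the 2 count as 1 result. Hsp23 had 12.5 to 19.8 CPM in LD and 15.6 to 26.5 CPM in DD and was not called without day 4 hour 8 (adjusted p = 0.119).

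The large chaperones that were lower were Hsp70Ab, Hsp70Aa and Hsp70Bb, near-identical copies whose reads cannot be assigned with certainty, and the co-chaperones Stip1 and DnaJ-1. DnaJ-1 was not called without day 4 hour 8 (adjusted p = 0.152). Hsp70Ab had 6.68 to 9.58 CPM in LD and 9.55 to 12.0 CPM in DD (−0.36 ± 0.07). Beside these, Hsp22 followed temperature in the dark libraries of the series: at hours 4 and 8 its median was 12.4 CPM in LD at 25 °C, and in darkness it was 5.73 CPM at 18 °C, 33.1 CPM at 25 °C and 109 CPM at 29 °C. Genes that were lower in LD did not all follow temperature in 1 direction. In darkness at 18, 25 and 29 °C, ninaE had medians of 45156, 52642 and 55245 CPM, against 29149 CPM in LD. Myo28B1 had 38.9, 26.6 and 23.4 CPM, against 10.6 CPM in LD. Both conditions are labelled 25 °C, and whether their incubators held the same temperature is not in the labels. The part of temperature in these differences was not tested.

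Genes of transmitters and clock peptides were higher in LD where they passed, beside 3.61% of all genes that were higher. Pdf, the peptide of the main clock neurons, had 65.0 to 89.8 CPM in LD and 47.4 to 68.4 CPM in DD (0.49 ± 0.05, adjusted p = 2.83e-05). Its groups were separate at each hour. At hour 8 they had 85.6 to 89.8 CPM in LD and 50.0 to 68.4 CPM in DD. At hour 4, scaled over all 96 libraries, they had 66.0 to 73.7 CPM in LD and 48.2 to 51.1 CPM in DD. sNPF was the only other one called of the 9 clock peptide genes (0.20 ± 0.05), and it was not called without day 4 hour 8 (adjusted p = 0.0621). Gad1, which makes GABA, had 298 to 364 CPM in LD and 243 to 317 CPM in DD (0.33 ± 0.04, adjusted p = 8.89e-05) and was the 1 called of 9 genes for glutamate and GABA. Tdc2 and Tbh, the enzymes of octopamine synthesis, were the 2 called of 12 genes for dopamine, serotonin and octopamine (0.26 ± 0.06 and 0.19 ± 0.05). Both were lost without day 4 hour 8 (adjusted p = 0.0545 and 0.111), where Ddc and ple of the same list passed. The 6 neuron markers summed to 1917 to 2539 CPM in LD and 1831 to 2661 CPM in DD, so the groups overlapped.

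The remaining lists are given as counts, beside 7.03% of all genes called, 3.61% higher and 3.42% lower in LD. None of 15 antimicrobial peptide genes passed in edgeR or DESeq2 and 1 had an unadjusted p under 0.05. None of 10 genes of the methionine cycle passed in either tool, with 3 at an unadjusted p under 0.05. Of 10 genes for insulin-like peptides and AKH, 0 passed in edgeR and 1 in DESeq2 (Ilp3, lower in LD), with 2 at an unadjusted p under 0.05. ATPCL, which makes acetyl-CoA for fat synthesis, was the 1 of 18 fat genes called (0.19 ± 0.06). Without day 4 hour 8 ATPCL was not called (adjusted p = 0.111) and AcCoAS was. AGBE, the glycogen branching enzyme, was the 1 of 11 called for trehalose and glycogen (0.25 ± 0.06). Among 80 genes picked by the symbols of cytosolic ribosomal proteins, the 1 called was RpL24-like, which encodes a ribosome assembly factor. It had 199 to 236 CPM in LD and 240 to 289 CPM in DD. Of 26 odorant-binding protein genes 1 was lower in LD in edgeR (Obp19c) and 0 without day 4 hour 8, whereas DESeq2 called 2 higher (Obp57a and Obp99c) and 0 lower. Of 30 cuticle protein genes 3 were higher and 1 lower, and of 26 mitochondrial transcripts 1 was higher, against 2 higher with 0 lower and 0 higher without day 4 hour 8. Of the 4 haemocyte markers tested, eater and Pxn were higher in LD (0.32 ± 0.08 and 0.18 ± 0.04). Without day 4 hour 8 eater was not called (adjusted p = 0.0689).

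The comparison was next split by hour, which asks whether the cycle acts alike at the earlier and later daytime sample. At hour 4, 180 genes (1.75%) were called, at hour 8 it was 178 (1.73%), and 83 genes were called at both, 46.1% of the first set and 46.6% of the second. Without day 4 hour 8 the hour 4 count was 290 and the hour 8 count 63, and without replicate 2 they were 5 and 2. The difference between the hours was tested directly, and 10 genes passed (0.097%; edgeR), with 353 at an unadjusted p under 0.05. As given above, the sum of 5 photoreceptor markers was lower at hour 8 than at hour 4 in all 4 LD libraries and in 3 of the 4 DD libraries, the exception being replicate 1 of DD day 4.

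tim and vri differed more at hour 4 than at hour 8. tim had 78.1 to 91.1 CPM in LD and 315 to 386 CPM in DD at hour 4, and 158 to 207 CPM in LD and 246 to 385 CPM in DD at hour 8. The effect at hour 8 was smaller by 1.34 ± 0.16 (adjusted p = 0.000901). vri had 46.7 to 55.5 CPM in LD and 124 to 167 CPM in DD at hour 4 (log2 difference −1.55 ± 0.10), while at hour 8 its groups overlapped at 120 to 173 CPM in LD and 138 to 180 CPM in DD (−0.06 ± 0.10). The difference between hours for vri was 1.48 ± 0.15 (adjusted p = 0.000247). CG14275 had the same order of effects, −0.55 ± 0.05 at hour 4 and −0.12 ± 0.05 at hour 8, a difference of 0.43 ± 0.07 (adjusted p = 0.025) that did not pass without day 4 hour 8 (adjusted p = 0.366).

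Other genes differed more strongly, or in the other direction, at hour 8. Achl had 98.8 to 114 CPM in LD and 159 to 222 CPM in DD at hour 4, and 8.38 to 13.01 CPM in LD and 62.9 to 119 CPM in DD at hour 8. Its effect was −0.83 ± 0.16 at hour 4 and −3.06 ± 0.18 at hour 8 (difference −2.23 ± 0.24, adjusted p = 0.0005). CG34134 moved the same way, with −0.85 ± 0.11 at hour 4 and −1.76 ± 0.11 at hour 8 (difference −0.90 ± 0.15, adjusted p = 0.0269). Ugt35B1, a UDP-glycosyltransferase, crossed over: it had 100 to 108 CPM in LD and 66.2 to 86.2 CPM in DD at hour 4, and 55.8 to 69.7 CPM in LD and 68.5 to 78.4 CPM in DD at hour 8 (difference −0.77 ± 0.10, adjusted p = 0.00248). CG42329 crossed over as well (difference −1.08 ± 0.19). CG34134 and CG42329 did not pass without day 4 hour 8 (adjusted p = 0.271 and 0.601).

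For Hr38, sr and CG14186 the effect at hour 8 was lower by 0.55 ± 0.21, 0.46 ± 0.15 and 0.25 ± 0.15 than at hour 4, and these differences did not pass (adjusted p = 0.982 for each). Sod3 had 0.59 ± 0.07 at hour 4 and 0.57 ± 0.07 at hour 8. The 2 days gave no called difference in effect: 0 of 10313 genes (0%) passed in edgeR and 1 in DESeq2, with 189 at an unadjusted p under 0.05, and without replicate 1 it was 22 genes.

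Whether an effect belongs to the daytime hours was tested against hours 16 and 20 in a fit of 32 libraries. The effect of the cycle differed between day and night for 363 of 10321 genes (3.52%), of which 163 (1.58%) had a higher LD-to-DD ratio by day and 200 (1.94%) a lower one. At night itself 1000 genes (9.69%) were called. Of the 725 daytime genes, 238 were also called at night, which is 32.8% of the daytime set and 23.8% of the night set. The 2 sets of hours share no library, but they come from the same conditions and days.

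Among called genes with a mean of at least 5 CPM over the 32 libraries, Hr38 had the largest positive difference of effects, 1.71 ± 0.18 (adjusted p = 2.3e-07). Below that level, Jhe, the juvenile hormone esterase, differed by 2.54 ± 0.26 and had 0.359 to 1.07 CPM in LD and 3.01 to 3.98 CPM in DD by night, and CG33965 differed by −2.52. By night Hr38 had 8.003 to 10.6 CPM in LD and 9.20 to 15.8 CPM in DD. These groups overlapped, but the LD mean was below the DD mean at hours 16 and 20. Part of the difference of effects of Hr38 thus came from lower levels in LD by night. sr (difference 1.01 ± 0.16), CG14186 (0.999 ± 0.12), Sod3 (0.64 ± 0.08) and CG44247 (0.65, adjusted p = 2.91e-06) also differed by day. Their night effects lay between −0.13 and 0.03. In LD the mean of Hr38 over the day was 9.90, 30.2, 22.7, 26.8, 9.01 and 9.50 CPM at hours 0, 4, 8, 12, 16 and 20, and in DD it was 10.5, 10.004, 10.9, 10.6, 12.9 and 11.3 CPM. Levels in LD thus stood above those in DD at hours 4, 8 and 12, and below them at hours 16 and 20.

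cry turned round between day and night. By night it had 66.1 to 86.1 CPM in LD and 119 to 146 CPM in DD, a log2 difference of −0.83 (adjusted p = 1.11e-13), and the difference between day and night effects was 1.22 ± 0.06. tim turned the other way, with 494 to 728 CPM in LD and 302 to 443 CPM in DD by night (0.66, adjusted p = 0.00656) and a difference of effects of −2.06 ± 0.22. CG14221 (difference −2.06 ± 0.17) and Myo28B1 (−1.24 ± 0.22) had night effects of 0.04 and −0.00, with groups that overlapped. CG15080 (−1.79 ± 0.29) was again the low-level rhythmic gene. CG14329 and CG9521 had positive differences of 1.32 ± 0.21 and 1.27 ± 0.19 that came from lower levels in LD by night, and by day they were not called.

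Some daytime differences had a like size at night. Tk was higher in LD by 0.59 ± 0.04 by day and by 0.43 at night (adjusted p = 4.32e-06), and Pdf by 0.49 ± 0.05 and 0.43 (adjusted p = 6.75e-05). ninaE differed by −0.85 by day and −0.91 at night (adjusted p = 1.61e-06), and Hsp22 by −1.39 and −1.61 (adjusted p = 1.03e-05). For none of these 4 did the difference of day and night effects pass (adjusted p = 0.355, 0.9, 0.956 and 0.885). Cnx99A did differ, with −0.73 by day and −0.17 at night (difference −0.56 ± 0.11, adjusted p = 0.00162).

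**Figure D5:**
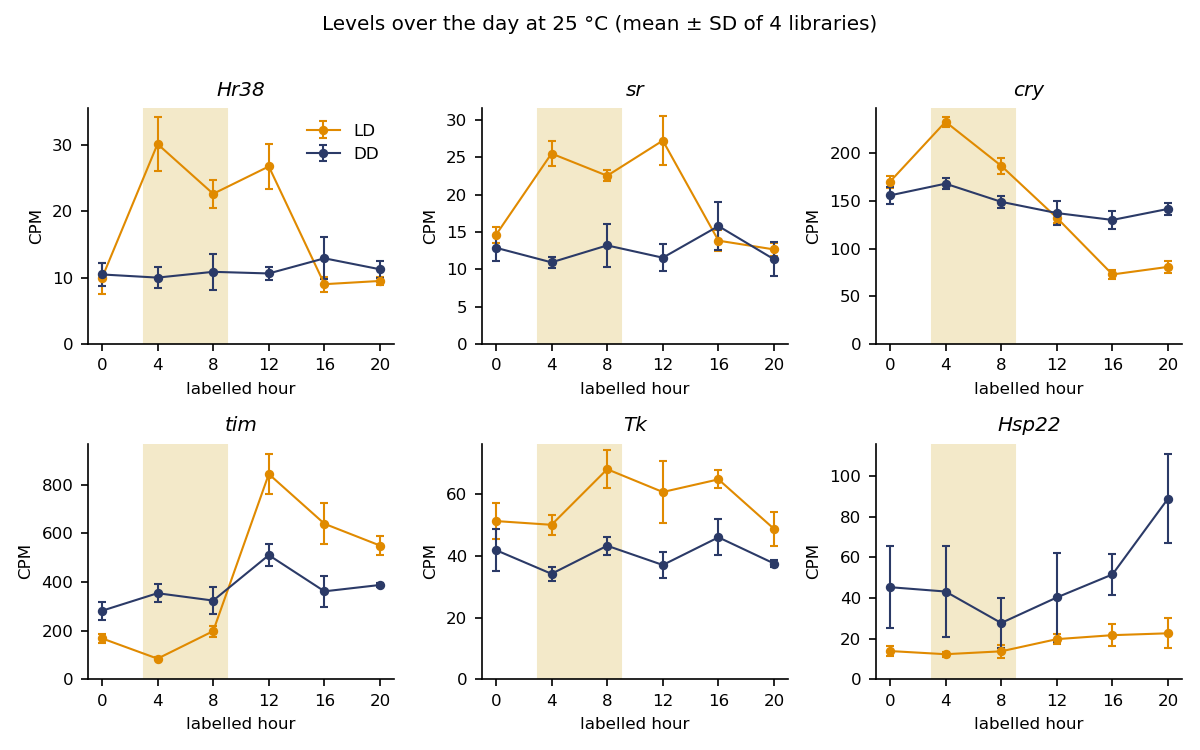
Mean level (CPM, scaled over all 96 libraries; linear axis from 0) of 6 genes at each labelled hour in LD and in DD at 25 °C, with bars of ±1 SD over 4 libraries and the daytime hours shaded. Hr38 and sr in LD stood above DD at hours 4, 8 and 12, cry and tim crossed between day and night in opposite directions, and Tk and Hsp22 kept their order at every hour.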

How the data were processed

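RNA was extracted with RNeasy columns and DNase, and polyA-selected, strand-specific libraries (NEBNext Ultra II Directional) were read paired-end, per the labels' protocols. Per the submitters' processing notes, fastp 0.23.2, HISAT2 2.2.1 and featureCounts (Subread 2.0.8) were used; options, strand setting and genome build are not given in the sources used here. The authors deposited what are treated here as estimated counts per gene, made with featureCounts per the submitters' processing notes and not normalised; 40.2% of nonzero values are not whole, so counts were rounded before each test. 0 columns were left over. Symbols and overlaps came from the BDGP6.54 annotation (17607 of 17610 identifiers), which may not be the authors' build.

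Here, TMM scaling, filterByExpr by condition (10313 of 15910 genes with a count, 99.9% of counts) and edgeR 4.0.16 quasi-likelihood tests (R 4.3.3) were run on 16 libraries with time point and condition as terms, which left 11 residual degrees of freedom. P-values were Benjamini-Hochberg adjusted over all genes at 0.05. SE is the log2 difference over the root of F. Levels are scaled over the 16 libraries, over 32 for night hours, and over 96 for marker sums, other temperatures and means by hour. Named genes are the 12 largest increases and 12 largest decreases among calls with at least 5 CPM and 1 direction at all 4 time points, 4 per direction for differences of effects, and list members. Members and lists were chosen with earlier results of these data known. DESeq2 1.42.0, other filters, a replicate block and libraries left out were tried. The tests were tried on simulated counts. The series design calls the replicates biological but do not say whether they came from separate cultures, so p-values measure the spread between these libraries. Depth covers counting error only, because PCR copies of 1 molecule cannot be recognised.

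Whether same-numbered replicates are paired was checked. Deviations of the LD and DD libraries with 1 number correlated at 0.47, 0.55, 0.19 and 0.036 over the 4 time points, all above 0 but not all above 0.1. These values do not settle whether the number marks a pair. The number was not used as a block in the tests reported, since no label says that it marks a shared batch. With the block, 1107 genes were called by day in place of 725.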

Additional observations from a re-analysis of the deposited data

Results flagged for a closer look

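In 1 of the 8 libraries of a group, a level stood far from the others for 4 of the 24 genes named for their change, 2 of which are the same measurement. Among the 48 groups looked at, chance alone would mark about 1 in 20. sr had 17.3 CPM in DD day 5 hour 8 replicate 2, while the other 7 DD libraries had 9.77 to 11.9 CPM. Hsp22 and CG4456, whose values are identical, had 18.1 CPM in LD day 5 hour 8 replicate 2, while the other 7 LD libraries had 10.3 to 13.2 CPM. CG2681 had 20.8 CPM in LD day 4 hour 8 replicate 2, while the other 7 LD libraries had 27.3 to 31.5 CPM.

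The effect of the cycle differed between hours 8 and 4 for 10 genes by a test of the difference itself. Among genes of at least 5 CPM the largest differences in each direction (hour 8 minus hour 4, log2) were −2.23 for Achl, −1.08 for CG42329, −0.90 for CG34134, −0.77 for Ugt35B1, 1.495 for snoRNA:Or-CD16, 1.48 for vri, 1.34 for tim and 0.43 for CG14275.

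The effect differed between daytime and night hours for 363 genes. Among genes with a mean of at least 5 CPM over the 32 libraries the largest differences in each direction (daytime minus night, log2) were −2.06 for CG14221, −2.06 for tim, −1.93 for snoRNA:Or-CD16, −1.79 for CG15080, 1.71 for Hr38, 1.32 for CG14329, 1.27 for CG9521 and 1.22 for cry.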

How the results depend on the processing

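The daytime count of 725 genes was between 509 and 955 with DESeq2, DESeq2 size factors, other filters, unrounded counts, a 48-library fit and without day 4 hour 8. It was 1107 with the replicate number as a block, 25 on day 4 alone and 164 on day 5 alone, and 75 to 421 with 1 replicate left out. At hour 4 the count was 326 with DESeq2, 332 with the block, 7 on day 4 and 46 on day 5 alone, 290 without day 4 hour 8, and 5 to 76 with 1 replicate left out. At hour 8 it was 363 with DESeq2, 315 with no low-count filter, 561 with the block, 115 in the 48-library fit, 4 on day 4 and 33 on day 5 alone, 63 without day 4 hour 8, and 2 to 121 with 1 replicate left out. The difference between hours was called for 6 genes in the 48-library fit, 0 on day 4 and 5 on day 5 alone, and 2 to 3 with 1 replicate left out. The difference between days was called for 1 gene with DESeq2, 1 with no low-count filter and 0 to 22 with 1 replicate left out. The difference between day and night was called for 39 genes on day 4 and 126 on day 5 alone, and 88 with either replicate left out. These fits on 1 day or 1 replicate use fewer samples; otherwise the cause was not tested. With 1 replicate left out, each time point holds 1 library per condition, and the spread is estimated over the time points.

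Of the 24 genes named for their change, all kept their call with DESeq2, other filters, the block and without day 4 hour 8, 23 in the 48-library fit and on day 5 alone, 19 without replicate 2 and 10 on day 4 alone. At least 2-fold calls ranged from 5 on day 4 alone to 40 with no low-count filter. The sign turned only for genes that were not called: cyc on day 4 alone (−0.0026), Arr2 without replicate 1 (0.0021, against −0.038 without replicate 2), on day 5 alone (0.10) and without day 4 hour 8 (0.091), and Yp3 without replicate 1 (−0.036), on day 4 alone (−0.0041) and without day 4 hour 8 (−0.020). The fit without day 4 hour 8 was chosen after seeing the data. In a separate check, 10 of 16 libraries correlated best with the library of their own day, hour and number in the other condition. Only the condition means were removed for it, so a shared day and hour count as well as a shared number. It therefore cannot show that the number marks a pair, and the design does not say so.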

Other observations

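Further gene groups were picked after the values were seen, so their counts carry no test and are given as description. Over all genes, 3.61% were called higher and 3.42% lower in LD by day, and 9.69% were called at night. Among 13 glycolysis genes, the difference of LD over DD was above 0 for all 13, and 10 of them passed the test on its own (median log2 difference 0.22), 9 without day 4 hour 8. Pfk, the committed step of glycolysis, had 283 to 317 CPM in LD and 239 to 264 CPM in DD, and Pgk had 336 to 389 CPM in LD and 282 to 335 CPM in DD. Both had groups without overlap. At night 2 of the 13 were called, which says little beside 9.69% of all genes. Among 7 genes of the pentose phosphate path, 5 were called higher in LD by day (4 without day 4 hour 8) and 0 by night. So few genes cannot tell 0 calls from the night share over all genes. Zw, the glucose-6-phosphate dehydrogenase that opens this path, had 67.8 to 83.6 CPM in LD and 55.1 to 75.5 CPM in DD.

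Of 20 cytosolic aminoacyl-tRNA synthetases, 5 were called lower in LD (LeuRS, MetRS, AsnRS, LysRS and IleRS) and 0 higher, the same 5 as without day 4 hour 8. LeuRS had 42.5 to 53.7 CPM in LD and 59.3 to 84.9 CPM in DD, and MetRS had 33.0 to 36.6 CPM in LD and 42.4 to 56.2 CPM in DD, both without overlap. Night gave 9 calls, all lower in LD, beside 9.69% of all genes called at night.

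Of 30 neuropeptide precursors, 9 were called higher in LD (among them Tk, Pdf, spab and AstA) and 2 lower (Mip and Nplp3), and 5 and 2 without day 4 hour 8. Among their processing enzymes, the convertase amon (250 to 286 CPM in LD, 211 to 252 CPM in DD) and the carboxypeptidase svr (359 to 404 CPM in LD, 297 to 345 CPM in DD), were called higher as well.

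In both conditions ninaE alternated along the labelled hours. Its means were 27094, 34428, 22354, 35488, 22262 and 33447 CPM in LD at hours 0, 4, 8, 12, 16 and 20, and 49342, 56702, 43944, 57477, 45530 and 57966 CPM in DD. It was lower at hours 0, 8 and 16 than at hours 4, 12 and 20 in each condition, and the labels name nothing that alternates in this way.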
